A study of Mus musculus with 6 samples.

Results

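The genes Tbx21, Itgax, Itgam, Fcrl5, Zeb2, Zbtb32, Cd86 and Nt5e were followed in whole spleens of imiquimod-treated mice with and without a working interferon-γ receptor. They mark T-bet positive B cells, also called age-associated B cells (ABCs). Each of the 8 was taken by its gene name from a table of 44794 named gene loci, and each name had 1 locus. The groups were 3 Sle1b.IFNγR-/- spleens, labelled as interferon-γ receptor deficient and autoimmune prone, and 3 B6.Sle1b spleens, labelled as autoimmune-prone controls. All 6 samples came from mice carrying the Sle1b lupus interval and given imiquimod, which activates TLR7, a sensor of RNA, on 3 days a week over 4 weeks. There was no untreated group. The labels give neither the receptor chain that was disrupted nor an age, and whether each sample is 1 animal is not stated. A p-value here therefore reflects only how these samples vary, which may be technical. The RNA is of whole spleen, not of sorted B cells, and fewer cells of a type and less RNA per cell cannot be told apart.

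T-bet positive B cells accumulate with age and in lupus models. The transcription factor T-bet, encoded by Tbx21, is induced in B cells when signals through TLR7 or TLR9 combine with interferon-γ or with interleukin-21. The cells carry the integrin chains CD11c (Itgax) and often CD11b (Itgam), which are otherwise features of dendritic and myeloid cells, and have little of the complement receptor CD21 (Cr2) and of CD23 (Fcer2a). Several of the 8 genes are active in other spleen cells too: Tbx21 in Th1 and NK cells, Zeb2 in NK, myeloid and effector T cells, Zbtb32 in plasma cells, Cd86 in dendritic cells, and Nt5e in T cells.

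Promoter windows from RefSeq (build GRCm38.p6), 250 bases before to 50 after a gene's start, were found for 7 of the 8 genes, in 11 windows. They are shown for the defining transcription factor and for both genes whose groups did not overlap. Both strands were searched for the T-box motif TCACACC bound by T-bet, the interferon regulatory factor element GAAANNGAA and the E2-box CAGGTG bound by ZEB factors. Of all 32851 windows, 3.98% held the T-box motif, 8.56% the interferon regulatory factor element and 20.2% the E2-box. Capitals mark a match, and each sequence is written 5′ to 3′ on the gene's strand.
Tbx21 (chr11:97115282-97115581, minus strand): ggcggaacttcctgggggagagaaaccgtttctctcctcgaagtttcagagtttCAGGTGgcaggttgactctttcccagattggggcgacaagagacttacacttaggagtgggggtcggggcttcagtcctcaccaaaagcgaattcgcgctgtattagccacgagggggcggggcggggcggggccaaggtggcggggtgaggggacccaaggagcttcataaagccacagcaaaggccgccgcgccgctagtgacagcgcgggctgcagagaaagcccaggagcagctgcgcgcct
Zbtb32 (chr7:30598860-30599159, minus strand): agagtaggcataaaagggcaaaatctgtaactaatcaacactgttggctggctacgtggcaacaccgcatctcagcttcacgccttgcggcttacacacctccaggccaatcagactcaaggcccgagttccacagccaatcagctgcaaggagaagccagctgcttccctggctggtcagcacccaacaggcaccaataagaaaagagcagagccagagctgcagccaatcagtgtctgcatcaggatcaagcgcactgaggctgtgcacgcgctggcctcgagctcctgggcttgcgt
Itgax (chr7:128129300-128129599, plus strand): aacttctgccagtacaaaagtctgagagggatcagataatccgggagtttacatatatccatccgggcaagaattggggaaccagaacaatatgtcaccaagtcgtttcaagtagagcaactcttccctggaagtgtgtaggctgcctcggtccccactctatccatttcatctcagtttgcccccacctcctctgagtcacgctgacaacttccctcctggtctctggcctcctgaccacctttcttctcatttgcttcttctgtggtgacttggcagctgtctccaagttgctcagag
The Tbx21 window held 1 E2-box, at bases -196 to -191 from the start. The letters of these 3 motifs did not occur in the windows of Itgax, Zbtb32, Zeb2, Itgam, Fcrl5 or Nt5e. Zbtb32 had another window (chr7:30592893-30593192), which is not shown.

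The libraries held between 4394283 and 5960889 fragments in Sle1b.IFNγR-/- and between 5531789 and 6349836 in B6.Sle1b. B6.Sle1b replicate 1 stood apart: the median level of 30 ribosomal protein genes there was 3.10 times the mean of the 6 libraries on a log scale, against 0.742 in replicate 2 and 1.01 in replicate 3. In the Sle1b.IFNγR-/- libraries it lay between 0.832 and 0.892. It also had 26.96% of its signal in named loci, against 17.5% to 19.95% in the other 5 libraries. The differences of the 8 genes and the list medians are given with and without it. Ifngr1, the ligand-binding chain of the receptor, had 43.7, 21.4 and 24.0 scaled counts in Sle1b.IFNγR-/- and 81.5, 34.5 and 63.7 in B6.Sle1b, with overlap. Ifngr2, the other chain, had 5.25, 10.1 and 4.79 against 13.2, 12.3 and 7.50. Since a disrupted gene may still give RNA, neither level serves as a check of the genotype.

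All values are fragment counts of a gene's locus after the authors' scaling between libraries (scaled counts), and log2 differences are Sle1b.IFNγR-/- minus B6.Sle1b on log2(scaled count + 1), which understates the change of low genes. All 8 genes had a lower mean in Sle1b.IFNγR-/- spleens, but none passed the test over the 19227 named loci whose mean reached 10 (limma, Benjamini-Hochberg adjusted p under 0.05). That test called 0% of the loci, while 399 had an unadjusted p under 0.05 with lower and 197 with higher values. Zbtb32 and Itgax were the only 2 of the 8 whose groups did not overlap. Among all tested loci, 5.19% were lower without overlap and 3.51% higher. The groups of Tbx21, Fcrl5, Itgam, Zeb2, Cd86 and Nt5e overlapped.

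**Figure D1:**
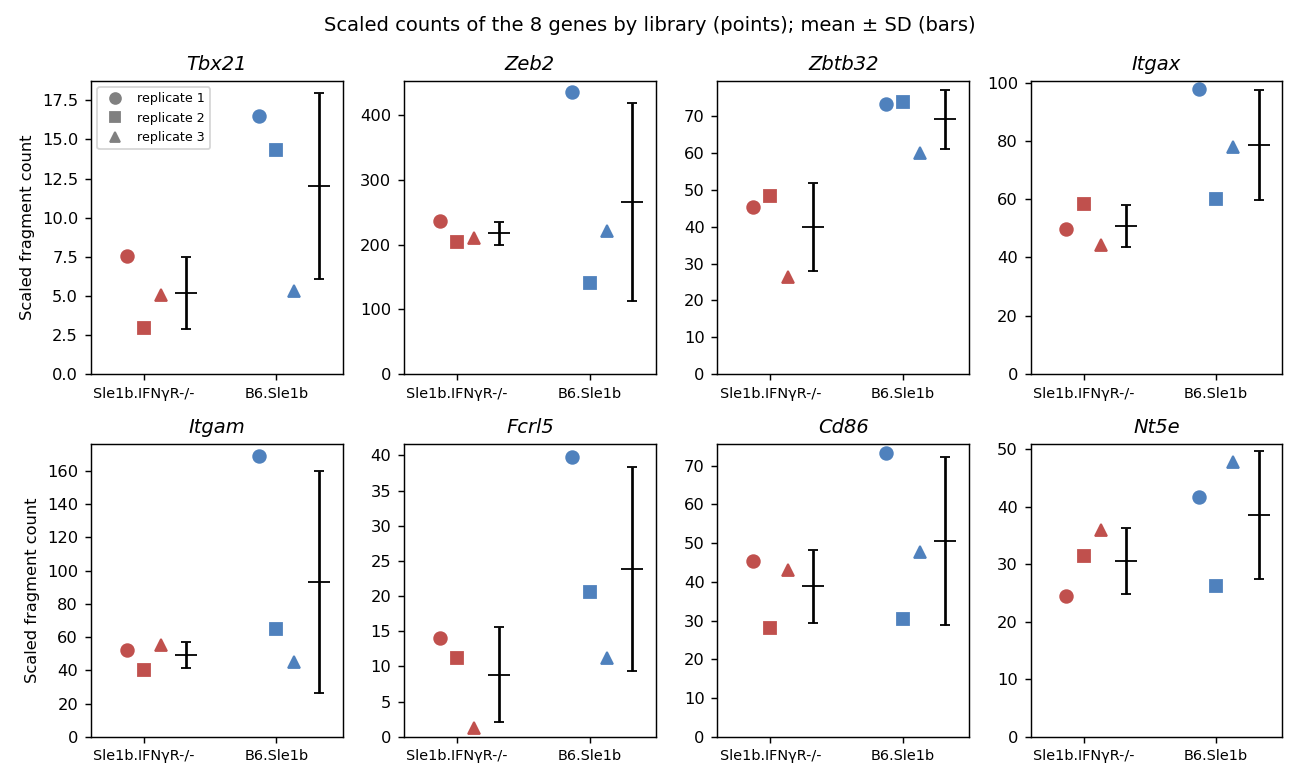
Scaled fragment counts (vertical axis, from 0) of the 8 genes in the 3 Sle1b.IFNγR-/- and 3 B6.Sle1b libraries; each symbol is 1 replicate, and the bar beside each group is its mean ± SD. For Zbtb32 and Itgax the Sle1b.IFNγR-/- points all lie under the B6.Sle1b points, and B6.Sle1b replicate 1 is the highest library for 6 of the 8 genes.

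Among the transcription factor genes, Tbx21, which encodes T-bet (ENSMUSG00000001444, chromosome 11, 97098071 to 97115331, GRCm38), had 7.57, 2.96 and 5.08 scaled counts in Sle1b.IFNγR-/- and 16.5, 14.3 and 5.29 in B6.Sle1b. The means were 5.20 ± 2.30 and 12.035 ± 5.94 (SD, n = 3 each). Replicates 1 and 2 of B6.Sle1b stood above all other libraries, while B6.Sle1b replicate 3 lay among the Sle1b.IFNγR-/- values. These levels are only 2.63 to 17.4 fragments a library, and counting error alone is 43.96% of the mean in Sle1b.IFNγR-/- and 27.6% in B6.Sle1b. The mean of 8.62 over the 6 libraries was under the minimum of 10, so Tbx21 was not in the test. The log2 difference was -1.01, and with a minimum of 5 instead, a choice made after the data were seen, its SE was 0.70 and its adjusted p 0.999 (limma). Tbx21 was also the only one of the 8 genes whose values were not whole multiples of 1 fragment in any library, and how its fragments were assigned is not given in the sources used here.

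Zeb2, a zinc finger repressor that acts with T-bet in NK and effector T cells and is needed for ABCs, had 237, 203 and 211 scaled counts in Sle1b.IFNγR-/- and 436, 141 and 220 in B6.Sle1b. It was the most abundant of the 8 by count (chromosome 2, 44983632 to 45117395). B6.Sle1b held both the highest library, replicate 1, and the lowest, replicate 2. The means were 217 ± 17.6 and 266 ± 153 (SD, n = 3 each), and the log2 difference was -0.14 (SE 0.35, 95% interval -0.90 to 0.63, limma adjusted p = 0.9998). It was 0.30 (SE 0.24) without B6.Sle1b replicate 1, so the sign of the Zeb2 difference depends on that library. With all 6 libraries the sign also changed under some other scalings and with the ribosomal protein level as a covariate, as given in the last section. The locus also carries the name of the miRNA Mir5129, which lies within Zeb2, and Zeb2 overlaps the antisense gene Zeb2os. The strand setting is not given in the sources used here, so reads of both genes may be mixed.

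Zbtb32, a BTB zinc finger repressor found in ABCs and plasma cells and known to limit memory B cell recall, differed between the groups without overlap. It had 45.5, 48.3 and 26.4 scaled counts in Sle1b.IFNγR-/- and 73.4, 74.0 and 59.998 in B6.Sle1b (chromosome 7, 30589681 to 30598909). The lowest B6.Sle1b library lay above the highest Sle1b.IFNγR-/- library, and B6.Sle1b replicate 1 did not stand apart from replicate 2. The means were 40.05 ± 11.9 and 69.1 ± 7.90 (SD, n = 3 each), a ratio of 0.579. The log2 difference was -0.81 (SE 0.33, 95% interval -1.53 to -0.096), with an unadjusted p of 0.029 and an adjusted p of 0.9998 (limma). It ranked at place 298 of 19227 loci by p. It was the only one of the 7 tested genes with an unadjusted p under 0.05, which 2.08% of all loci reached with lower values and 1.02% with higher values. Without B6.Sle1b replicate 1 the difference was -0.77 (SE 0.35, adjusted p = 0.993), and without Sle1b.IFNγR-/- replicate 3 it was -0.54 (SE 0.34).

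The integrin genes lie side by side. Itgam ends 11055 bases before Itgax begins on the plus strand of chromosome 7 (Itgam 128062640 to 128118491, Itgax 128129547 to 128150657). Itgax, the CD11c chain, had 49.8, 58.4 and 44.3 scaled counts in Sle1b.IFNγR-/- and 97.8, 60.01 and 77.8 in B6.Sle1b. The groups were separate, but Sle1b.IFNγR-/- replicate 2 and B6.Sle1b replicate 2 nearly met. The means were 50.9 ± 7.11 and 78.5 ± 18.9 (SD, n = 3 each), a ratio of 0.648, and the log2 difference was -0.60 (SE 0.31, 95% interval -1.26 to 0.068, limma adjusted p = 0.9998). Without B6.Sle1b replicate 1 the difference was -0.43 (SE 0.31), still with no overlap, which 8.77% of loci then showed with lower values.

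Itgam, the CD11b chain, had 52.5, 40.5 and 55.1 scaled counts in Sle1b.IFNγR-/- and 169, 64.9 and 44.998 in B6.Sle1b. B6.Sle1b replicate 1 held 60.6% of the group's total, and replicate 3 lay within the Sle1b.IFNγR-/- values. Itgam averaged 49.3 ± 7.81 in Sle1b.IFNγR-/- and 93.03 ± 66.7 in B6.Sle1b (SD, n = 3 each). Its log2 difference was -0.68 (SE 0.43, 95% interval -1.61 to 0.24, limma adjusted p = 0.9998). It was -0.14 (SE 0.33) without B6.Sle1b replicate 1, and the ratio of means was 0.898, against 0.530 with all libraries. The ratio of Itgax to Itgam was 0.950, 1.44 and 0.804 in Sle1b.IFNγR-/- and 0.578, 0.924 and 1.73 in B6.Sle1b. Its mean was 1.07 ± 0.336 and 1.08 ± 0.591 (SD, n = 3 each). Counting error alone is 14.3% of the mean for Itgax and 14.5% for Itgam in Sle1b.IFNγR-/-, and 10.9% and 10.1% in B6.Sle1b. Whether the 2 chains kept a fixed proportion within a group was not tested. The annotation also places the readthrough gene Gm49368 over Itgam, and reads of the 2 cannot be told apart.

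Fcrl5, a surface receptor of the Fc receptor-like family found on B cells, had 13.99, 11.2 and 1.198 scaled counts in Sle1b.IFNγR-/- and 39.7, 20.6 and 11.2 in B6.Sle1b (chromosome 3, 87435773 to 87500678). The value in Sle1b.IFNγR-/- replicate 3 is a single fragment, and B6.Sle1b replicate 1 was the highest. The means were 8.81 ± 6.73 and 23.8 ± 14.5 (SD, n = 3 each). The log2 difference of -1.58 (SE 0.77, 95% interval -3.25 to 0.087, limma adjusted p = 0.9998) had the largest size and the widest interval of the 7 tested genes. It was -0.70 (SE 0.58) without Sle1b.IFNγR-/- replicate 3 and -1.14 (SE 0.85) without B6.Sle1b replicate 1. The spread within Sle1b.IFNγR-/- was 76.4% of the mean, where counting error gives 33.3%.

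Cd86, a ligand of the T cell costimulatory receptor CD28 that is raised on activated B cells, had 45.5, 28.1 and 43.1 scaled counts in Sle1b.IFNγR-/- and 73.4, 30.4 and 47.8 in B6.Sle1b (chromosome 16, 36603869 to 36666081). Apart from B6.Sle1b replicate 1 the libraries of both groups were mixed. Cd86 averaged 38.9 ± 9.43 in Sle1b.IFNγR-/- and 50.5 ± 21.6 in B6.Sle1b (SD, n = 3 each). Its log2 difference was -0.31 (SE 0.38, 95% interval -1.14 to 0.51, limma adjusted p = 0.9998), or -0.0032 without B6.Sle1b replicate 1. Nt5e encodes CD73, which makes adenosine from AMP and marks some memory B cells (chromosome 9, 88327197 to 88372092). It had 24.5, 31.5 and 35.9 scaled counts in Sle1b.IFNγR-/- and 41.8, 26.3 and 47.8 in B6.Sle1b. The groups overlapped through B6.Sle1b replicate 2, the means were 30.6 ± 5.77 and 38.6 ± 11.1 (SD, n = 3 each), and the log2 difference was -0.30 (SE 0.36, 95% interval -1.08 to 0.48, limma adjusted p = 0.9998). For both genes the interval covers lower as well as higher levels in Sle1b.IFNγR-/- than in B6.Sle1b.

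All 8 log2 differences were below 0, as were 58.1% of all tested loci. The median of the 8 was -0.64, beside -0.083 for all loci. B6.Sle1b replicate 1 was the highest library for 6 genes, B6.Sle1b replicate 2 for Zbtb32 and replicate 3 for Nt5e, while no gene was highest in a Sle1b.IFNγR-/- library. Without B6.Sle1b replicate 1, 7 of the 8 differences were below 0, with Zeb2 the exception, and the median was -0.33, beside 0.019 for all loci. Tbx21 (-0.73), Fcrl5, Zbtb32 and Itgax then kept differences beyond -0.4, whereas Itgam, Cd86 and Nt5e lay between -0.22 and -0.0032.

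**Figure D2:**
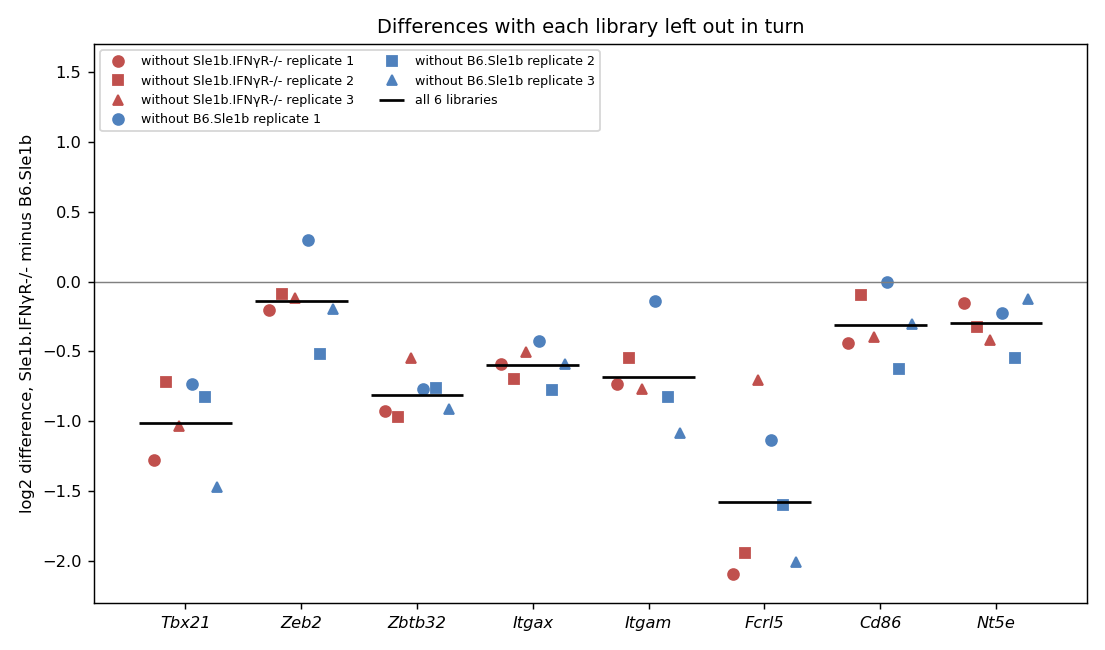
Log2 difference of each gene (vertical axis, Sle1b.IFNγR-/- minus B6.Sle1b) with 1 library left out at a time; symbols give the library left out and horizontal lines the value with all 6. Without B6.Sle1b replicate 1 Zeb2 lies at 0.30 and Cd86 at -0.0032, while Zbtb32 stays between -0.97 and -0.54 in all 6 repeats.

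The number of B cells could differ between spleens, so the 8 genes were also set against 10 B cell markers. All 10 B cell markers were detected. Their summed scaled counts were 1023 to 1079 in Sle1b.IFNγR-/- and 905.9 to 2144 in B6.Sle1b, where replicate 1 was highest. Of the 10 markers 9 had lower values in Sle1b.IFNγR-/- (median log2 difference -0.28), or 4 of 10 (median 0.11) without B6.Sle1b replicate 1. Per B cell marker level, the groups of all 8 genes overlapped. Zbtb32 then had 51.8, 58.1 and 27.2 in Sle1b.IFNγR-/- and 36.9, 115 and 54.4 in B6.Sle1b, and Itgax 56.7, 70.2 and 45.8 against 49.2, 93.2 and 70.6. When all loci were scaled in this way, 5 of the 8 differences were below 0: Fcrl5 at -1.27, Tbx21 at -0.73, Zbtb32 at -0.49, Itgam at -0.36 and Itgax at -0.27. Zeb2 (0.19), Cd86 (0.014) and Nt5e (0.021) were above 0, and the median of all loci moved to 0.23. No member passed the test in this scaling (limma, adjusted p = 0.9995 for each tested gene).

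**Figure D3:**
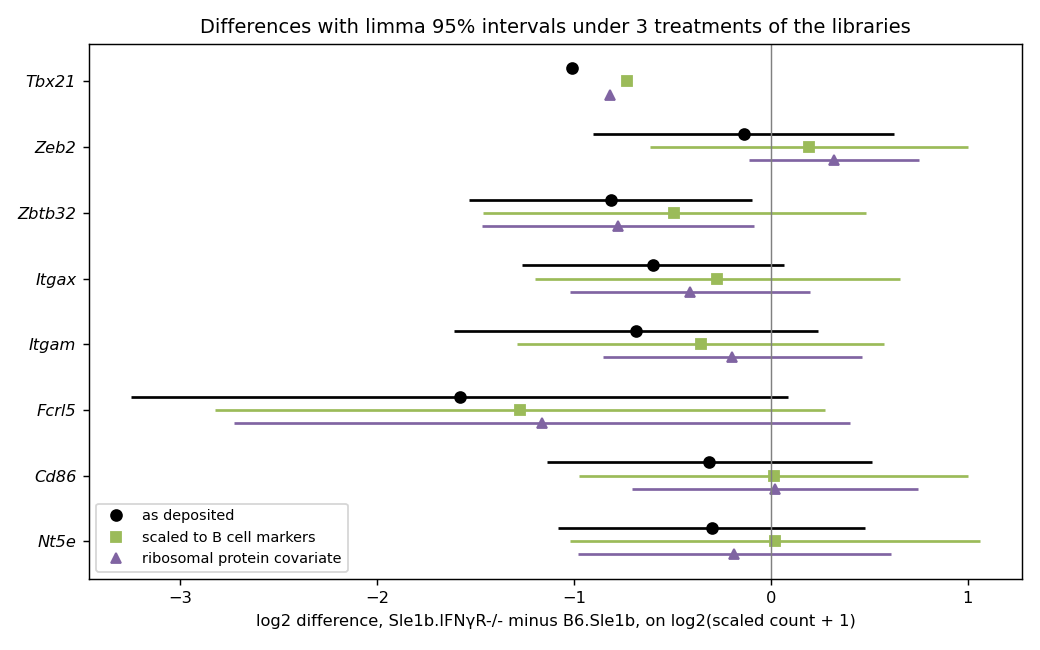
Log2 difference of each gene (horizontal axis, Sle1b.IFNγR-/- minus B6.Sle1b) as deposited, scaled to B cell markers and with the ribosomal protein level as a covariate; horizontal lines are 95% intervals from limma, and Tbx21 has none because it was under the minimum. Only the Zbtb32 interval excludes 0 before adjustment, as deposited (-1.53 to -0.096) and with the covariate (-1.47 to -0.085).

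Markers of other spleen cells that use these genes are given next, beside the 58.1% of all loci with lower values (48.4% without B6.Sle1b replicate 1), and their part in the results was not tested. Plasma cell markers, which share Zbtb32 with ABCs, were lower in 5 of 5 tested genes (median log2 difference -1.26, or -0.54 without B6.Sle1b replicate 1). The list includes Prdm1, described with the partner genes. Derl3, of endoplasmic reticulum quality control, had 6.12, 12.4 and 4.79 scaled counts in Sle1b.IFNγR-/- and 39.7, 20.6 and 16.9 in B6.Sle1b, and the joining chain gene Igj 44.6, 52.8 and 40.7 against 377, 53.4 and 86.2. Derl3 (mean 7.76 against 25.7) reached the minimum mean only through its B6.Sle1b values. Xbp1 (27.1, 25.8 and 26.4 against 216, 18.1 and 67.5) and Irf4 (45.5, 46.1 and 34.7 against 225, 41.9 and 56.2) overlapped through B6.Sle1b replicate 2. The summed level of the plasma cell list was 160.9 to 183.2 in Sle1b.IFNγR-/- and 198.1 to 971.1 in B6.Sle1b, without overlap. Tnfrsf17 was listed at 0 in every library. Zbtb32 and the plasma cell sum were both lower in Sle1b.IFNγR-/-. In B6.Sle1b replicates 1, 2 and 3 the sums were 971.1, 198.1 and 299.1, with Zbtb32 at 73.4, 74.0 and 59.998. Whether the 2 are related was not tested.

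For the integrins, 8 of 8 tested monocyte and macrophage markers had lower values (median -0.33), but without B6.Sle1b replicate 1 this held for 4 of 8 (median -0.11). Their summed level was 386.6 to 416.2 in Sle1b.IFNγR-/- and 259 to 1310 in B6.Sle1b. Conventional dendritic cell markers were lower in 5 of 7 tested genes (median -0.14, or 0.014 without that library), with sums of 244.5 to 257.3 and 204 to 342.6. Among them Flt3, the receptor for the dendritic cell growth factor FLT3 ligand, was lower without overlap at 15.7, 15.7 and 22.8 scaled counts in Sle1b.IFNγR-/- against 36.7, 26.3 and 36.6 in B6.Sle1b. Flt3 was the only one of the 7 whose groups did not overlap, beside 5.19% of all loci that were lower without overlap. Neutrophil markers summed to 131.2 to 172.5 and 135.6 to 341.4, with 4 of 5 tested genes lower (median -0.44, or 0.045 without B6.Sle1b replicate 1). Plasmacytoid dendritic cell markers summed to 68.2 to 110.2 and 81.4 to 198.7, with 2 of 3 tested loci lower (median -0.59, or -0.20 without that library).

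NK cell markers, which bear on Tbx21 and Zeb2, were close to the limit of detection. Only 2 of 7 reached the minimum mean, with 1 lower and 1 higher (median -0.46, or -0.47 without B6.Sle1b replicate 1), and the means of Klrd1, Klre1 and Gzma over the 6 libraries were 0.744, 0.545 and 1.21 scaled counts, less than the 2.47 to 3.59 that 3 fragments give. The NK sums were 39.5 to 47.2 in Sle1b.IFNγR-/- and 35.4 to 44.8 in B6.Sle1b. T cell markers summed to 270.2 to 317.4 and 272.9 to 476.9, with 4 of 6 tested genes lower (median -0.19), or 3 of 6 (median -0.025) without B6.Sle1b replicate 1. Marginal zone B cell markers ran opposite to Fcrl5, a gene that marginal zone B cells also use: 6 of 6 were higher in Sle1b.IFNγR-/- (median 0.43, or 0.59 without B6.Sle1b replicate 1), with sums of 149.7 to 233.5 and 101.1 to 147.8. Cr2 belongs to this list as well, was its only gene without overlap and was the largest part of each sum. Among all tested loci 3.51% were higher without overlap. The list's median level was lowest in Sle1b.IFNγR-/- replicate 3 (-0.24 relative to the mean of the 6 libraries). Cd1d1 (mean 15.78 against 8.83) and Cd9 (13.95 against 6.62) reached the minimum mean only through their Sle1b.IFNγR-/- values. None of the genes in these lists passed the test over all loci.

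**Figure D4:**
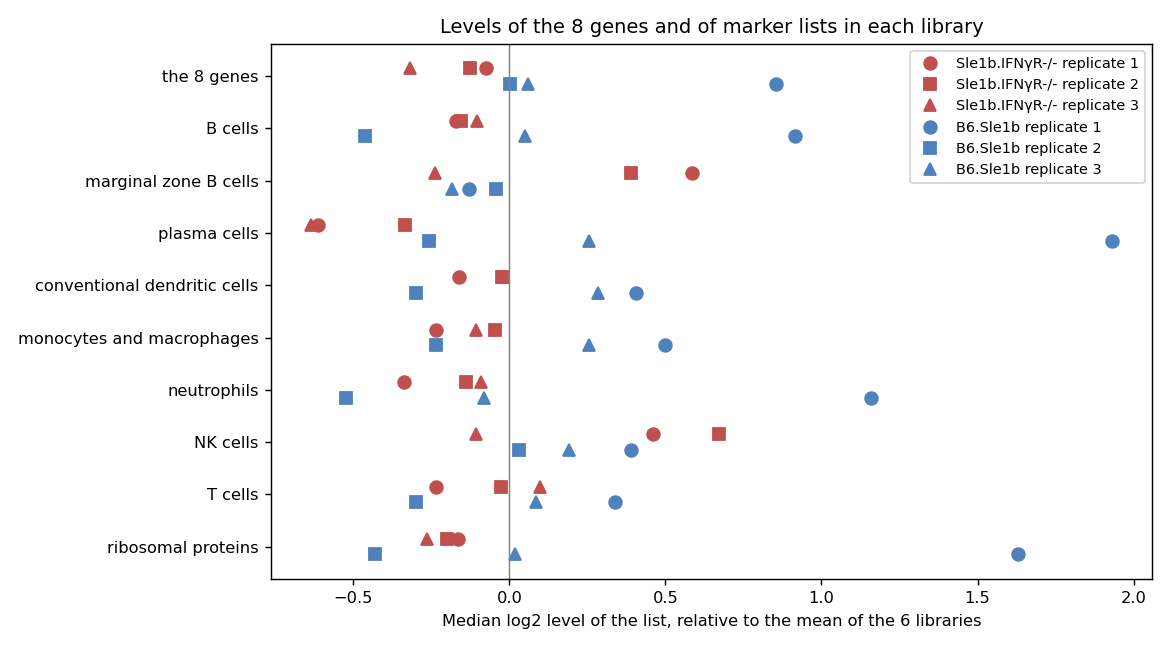
Median log2 level of the 8 genes and of each marker list (horizontal axis, relative to the mean of the 6 libraries) in each Sle1b.IFNγR-/- and B6.Sle1b library. B6.Sle1b replicate 1 lies at 0.86 for the 8 genes, 0.91 for B cells, 1.93 for plasma cells and 1.63 for ribosomal proteins, and the Sle1b.IFNγR-/- libraries lie between -0.32 and -0.075 for the 8 genes.

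Other genes reported as high in T-bet positive B cells had smaller differences at the median. Of 15 such genes 12 were tested, 8 lower and 4 higher, with a median of -0.20, or 0.27 with 4 of 12 lower without B6.Sle1b replicate 1. Tlr9, the endosomal DNA sensor, was the only one without overlap, at 16.6, 25.8 and 27.6 scaled counts in Sle1b.IFNγR-/- and 44.8, 28.8 and 38.4 in B6.Sle1b. Among all tested loci 5.19% were lower without overlap. Cxcr3, a chemokine receptor gene that T-bet activates, had 3.50, 5.62 and 3.59 against 29.6, 4.93 and 13.1. Its log2 difference was -1.41 (SE 0.87), with overlap through B6.Sle1b replicate 2. Its mean over the 6 libraries was 10.05, just past the minimum of 10, and rested on B6.Sle1b, above all replicate 1. Neither Tlr9 nor Cxcr3 passed (limma adjusted p = 0.9998 each).

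Of 7 genes known to be low in T-bet positive B cells, 5 had lower and 2 higher values (median -0.081). Only 1 of 7 was lower, with a median of 0.29, without B6.Sle1b replicate 1. Cr2, the gene of CD21, was higher without overlap, at 116, 98.9 and 82.7 scaled counts in Sle1b.IFNγR-/- and 66.2, 30.4 and 74.997 in B6.Sle1b, a log2 difference of 0.87 (SE 0.36, limma adjusted p = 0.9998). Bach2, a repressor of plasma cell differentiation, had 129, 98.9 and 134 against 277, 104 and 160. Fcer2a, the gene of CD23, had 113.7, 103.4 and 117.4 against 136.5, 122.5 and 88.1, with overlap (log2 difference -0.032, SE 0.28). Cr2 was thus the only one of the 7 whose groups did not overlap, beside 3.51% of all tested loci that were higher without overlap. None of the 7 passed the threshold.

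Among 22 genes of signals that induce or oppose T-bet in B cells, 15 loci were tested, with 9 lower and 6 higher (median -0.14, or 0.065 without B6.Sle1b replicate 1). Ifngr1 had the smallest p (log2 difference -0.98, SE 0.41, limma adjusted p = 0.9998). Ifng, the interferon-γ gene, had 2.62, 0 and 2.40 scaled counts in Sle1b.IFNγR-/- and 6.11, 4.11 and 3.75 in B6.Sle1b, and Il4 was listed at 0 in every library. Il21, named after its values were seen, was the only locus of this list to be higher without overlap, at 39.3, 49.4 and 55.1 against 31.6, 36.2 and 37.5. Among all tested loci 3.51% were higher without overlap.

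Of 15 partner genes of the 8, 12 were tested, 9 lower and 3 higher (median -0.42, or -0.079 without B6.Sle1b replicate 1). Itgb2, the β chain with which both CD11b and CD11c pair, had 67.3, 53.9 and 79.1 scaled counts in Sle1b.IFNγR-/- and 324, 40.3 and 112 in B6.Sle1b, so that its lowest and highest libraries were both B6.Sle1b. Prdm1, the gene of the plasma cell regulator Blimp-1, had 34.98, 42.7 and 50.3 against 86.6, 59.2 and 64.7, without overlap. Fcrl1, the neighbour of Fcrl5, had 17.5, 12.4 and 15.57 against 54.0, 12.3 and 29.1. Ctla4, a receptor for the CD86 protein and named after its values were seen, had 35.9, 40.5 and 37.1 against 54.0, 45.2 and 56.2, without overlap. The name Ctla4 stands at 2 loci, of which this is one. Prdm1 and Ctla4 were the only 2 of the 12 whose groups did not overlap, beside 5.19% of all tested loci that were lower without overlap. Cd80, the other ligand of CD28, lay under 8 in every library.

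Per kilobase of annotated exon the 8 genes formed a higher and a lower set of levels. Zbtb32 averaged 23.2 scaled counts per kb over the 6 libraries (11.2 to 31.4), followed by Itgam at 14.2, Itgax at 13.5, Cd86 at 12.2 and Zeb2 at 12.1. Fcrl5 followed at 4.69, Nt5e at 4.03 and Tbx21 at 3.46 (1.19 to 6.63). The order differed between the groups. In Sle1b.IFNγR-/- Zbtb32 (17.0 per kb) was followed by Zeb2 (10.9), Cd86 and Itgax (10.6 each), Itgam (9.82), Nt5e (3.56), Fcrl5 (2.53) and Tbx21 (2.09). In B6.Sle1b Zbtb32 (29.3 per kb) was followed by Itgam (18.5), Itgax (16.4), Cd86 (13.8), Zeb2 (13.3), Fcrl5 (6.85), Tbx21 (4.84) and Nt5e (4.49). Zbtb32 was above Itgam in 5 of 6 libraries, and Zeb2 above Fcrl5 in 6 of 6. The neighbours Itgam and Itgax, Itgax and Cd86, Cd86 and Zeb2, Fcrl5 and Nt5e, and Nt5e and Tbx21 kept their order in only 3 or 4 of 6 libraries, with mean differences smaller than the SD of the difference between libraries. Lengths are of all annotated exons together, from 2357 bases for Zbtb32 to 19942 for Zeb2, so a gene with long exons that spleen does not use has its level understated.

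**Figure D5:**
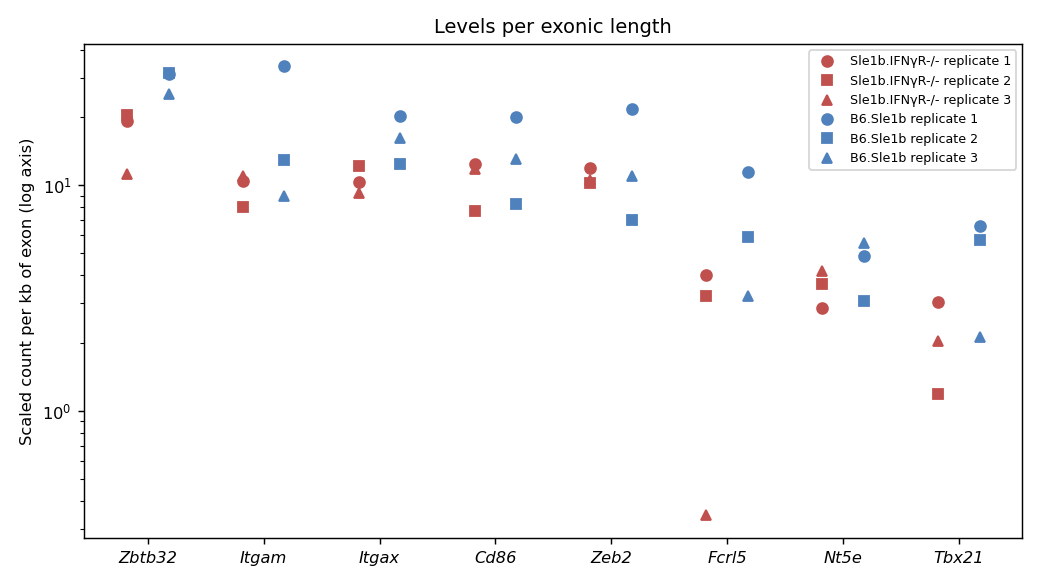
Scaled count per kb of annotated exon (vertical log axis) of the 8 genes in each Sle1b.IFNγR-/- and B6.Sle1b library, in order of the mean over the 6 libraries. Zbtb32 averages 23.2 and Tbx21 3.46 per kb.

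The profiles of the 8 genes over the 6 libraries were compared by the root mean square difference of log2(scaled count + 1) after centring each gene on its mean. This is a description over 6 libraries, of which B6.Sle1b replicate 1 is the highest for 6 of the 8 genes. The closest pair was Zeb2 and Cd86 (0.229), followed by Itgax with Nt5e (0.310) and with Zbtb32 (0.311). Tbx21 was closest to Itgam (0.442). Fcrl5 was farthest from the rest, at 0.839 from Zbtb32 and 1.34 from Nt5e. Among all tested loci the profiles most like Tbx21 were those of the lysosomal membrane gene Lamp3 (0.181), of Cnpy3, a chaperone for Toll-like receptors (0.184), and of Gtf2h4, a subunit of the transcription factor TFIIH (0.213). Those most like Itgax were Arap1 (0.0550), Wbp4 (0.0639) and Kdm5b (0.0874), and those most like Fcrl5 were Adhfe1 (0.301), Pdk4 (0.335) and Mctp1 (0.377).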

How the data were processed

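Spleen RNA was extracted with TRIzol and made into libraries with the NuGEN Ovation V2 amplification kit, per the labels' protocols. The submitters' processing notes name GRCm38 as the build and list Cufflinks 2.2.1, TopHat2 2.0.9 and CASAVA. The sources used here do not give the annotation release, the strand setting or how multi-mapped reads were handled. The deposited signal is a quartile-scaled fragment count of each assembled locus, per the file headers and the name of the table. The 1530481 rows were collapsed to 426574 loci, 44794 with a gene name. In each library 99.8% of positive values were whole multiples of 1 fragment within 0.01. The rest kept counts from being recovered, so count tests were not run. Another 24 columns of per-sample values were not used.

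The 19227 named loci whose mean reached 10 entered a limma fit (version 3.58.1, R 4.3.3) of log2(value + 1), with the variance trended on intensity, genotype as the only term and Benjamini-Hochberg adjustment over all of them. The fit was tested on simulated data. Values were summarised in python 3.11.15 with pandas 2.3.3 and numpy 2.4.6, and drawn with matplotlib 3.10.9. Coordinates and exon lengths are from GENCODE mouse release M21 on GRCm38. The 8 genes and all lists were chosen with earlier results of these data known. From each list up to 2 genes of smallest p were named. Ifngr2, Ifng, Il4, Tnfrsf17, Il21, Itgb2, Ctla4, Cd80, Fcer2a, Cd9, Xbp1, Irf4 and the NK cell genes were named outside that rule, after their values were seen. For Tbx21, Itgax and Fcrl5 the 3 closest profiles were named, skipping predicted genes, pseudogenes and small RNAs. Of 167 list entries 166 matched a locus, and Tlr7, Il21r, Cd80, Fcrla, Eomes, Prdm1 and Cr2 are in 2 lists each. A locus of the list of signals is counted but not reported by name here, and a further promoter motif that was searched is not reported. Alternatives were other scalings, filters, pseudocounts, a robust fit, a replicate block, a ribosomal covariate, sums over loci of 1 name and leaving out each library. Fragments are not independent molecules, so counting errors cover counting only.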

Additional observations from a re-analysis of the deposited data

How the results depend on the processing

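The test over all named loci called 0 genes, and still 0 with median-ratio or upper-quartile scaling, no low-value filter, a minimum mean of 50 or 5, pseudocounts of 0.5 or 10, the robust fit, sums over loci of 1 name, the replicate block and scaling to ribosomal protein genes. It called 1 with scaling to the total of named loci, 4 with scaling to B cell markers, 10 with the ribosomal protein covariate, and 0 to 5 when 1 library was left out (5 each without B6.Sle1b replicate 1 or 2). The numbers were not taken to pair the samples for the replicate block, since same-numbered libraries deviated with correlations of 0.0119, -0.0270 and -0.0113. Where tested, none of the 8 genes was called, with adjusted p of 0.506 or above in limma. Tbx21 was tested only with no low-value filter and with a minimum mean of 5, and Fcrl5, Cd86 and Nt5e were not tested at a minimum mean of 50. Tbx21, Zbtb32, Itgam and Fcrl5 had negative log2 differences under all 20 alternatives, at -1.47 to -0.48, -0.97 to -0.22, -1.09 to -0.077 and -2.09 to -0.70. The filters, robust fit, replicate block and sums over loci of 1 name cannot change a member's difference. Only the other scalings, pseudocounts, covariate and libraries left out bear on its sign.

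The other 4 changed sign under some alternatives, and the cause was not tested. Zeb2 was above 0 with the total of named loci (0.0093), the ribosomal covariate (0.32), B cell markers (0.19) and ribosomal scaling (0.48), and ranged from -0.52 to 0.30 over the libraries left out. Cd86 was at 0.021 with the covariate, 0.014 with B cell markers and 0.29 with ribosomal scaling. Nt5e was at 0.021 with B cell markers and 0.29 with ribosomal scaling, and Itgax at 0.0052 with ribosomal scaling. Ribosomal scaling, added after the data were seen, moved the median of all loci to 0.50. The count tests planned with edgeR and DESeq2 were not run, since whole counts could not be recovered for all values. Depth limits Tbx21 and Fcrl5 most, whose lowest libraries hold 2.63 fragments and 1 fragment.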
